A study of Mus musculus with 20 samples.

Results

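Skeletal muscle of trained mice was compared with that of untrained mice across both genotypes of an endurance training study, using all 20 of the 20 arrays of the series. The series asks what endurance training does in mice that over-express MHC-I. RNA of 20 mice was hybridised to 1 Affymetrix 3' expression array each. The titles and source names give 5 untrained wild-type mice (WTUT), 5 trained wild-type mice (WTT), 5 untrained transgenic mice (TGUT) and 5 trained transgenic mice (TGT), so 10 trained mice stood against 10 untrained mice, with genotype as a block in the model. A free-text description repeats the transgenic trained group for every sample and was not used. The transgene is known here only from the series title as an over-expression of MHC-I. The labels give neither its promoter nor the strain, and they do not name the muscle, the sex or age of the mice, the length or kind of training, or the time between the last bout and tissue collection. Nothing says that the mice were sampled on 1 day or processed together, and each p-value measures only the spread between these 20 mice. A value is a probe set intensity in arbitrary units. A difference is the mean of log2(intensity + 66.72) in trained minus untrained mice, so that 1 log2 unit is a doubling, and the added constant shrinks the differences of dim genes. Each gene is read by its brightest tested probe set.

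Endurance training is known to raise the oxidative capacity of skeletal muscle. In the mitochondrion, fuel oxidation feeds electrons through respiratory complexes I to IV, and the proton gradient they build drives ATP synthase. Most of these subunits are encoded in the nucleus, while a few are made inside the organelle on its own ribosomes. Nuclear receptors of the estrogen-related receptor (ERR) family and the respiratory factors NRF1 and GABP, with coactivators of the PGC-1 family, are known regulators of the nuclear genes. Muscle also adjusts fuel choice, calcium handling, protein turnover and capillary supply with repeated exercise, and many of its transcripts follow the time of day and feeding.

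The arrays were comparable in brightness, with medians between 156.7 and 174.9, and pairs of arrays correlated with r between 0.9235 and 0.991 over the 13575 tested probe sets. The summed intensity of the skeletal muscle fibre markers ran from 187170 to 198240 over the 20 mice. The Gapdh 3' minus 5' log2 difference, a reading of RNA integrity, was 0.01 ± 0.04 (SD, n = 10) in trained and 0.01 ± 0.05 in untrained mice. Of 1745 empty cells in the table (0.385%), 1328 lay in trained mice, 822 of them in wtt-137 and 386 in TGT-133. Some mice lay on the other side of the training difference from their label. The genes called for training were found without each mouse in turn, and that mouse's own value was set against the midpoint of the trained and untrained means of the other mice of its genotype. TGUT-145 lay on its labelled side for 204 of 689 such genes (29.6%), and WTT-144 for 252 of 686 (36.7%). TGT-133 reached 47.4% and TGUT-146 49.9%, and the other 16 mice lay between 55.7% and 97.3%. These shares pool genes that rose and genes that fell. Taken apart in that order, they were 29.17% and 30.16% in TGUT-145 but 53.75% and 21.86% in WTT-144. In TGT-133 they were 32.86% and 72.39%, and in TGUT-146 80.8% and 25.86%. For genes that fell, WTT-141 reached 47.35% and WTUT-138 39.77%. No mouse was relabelled or left out of the values given here. Without TGUT-145, each of the 109 called genes that the selection rule names was still called, and without WTT-144 108 were (Hspb2 was not).

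**Figure D1:**
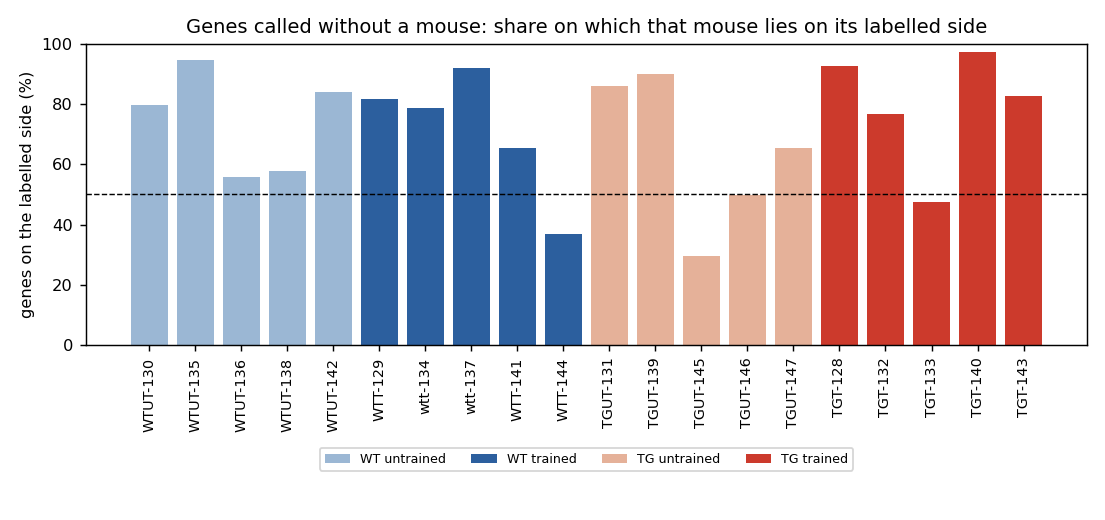
Share of genes, in percent, on which each mouse (bar, coloured by group) lay on the side of its label, among the genes called for training in the fit without that mouse; the dashed line marks equal shares. TGUT-145 and WTT-144 have the lowest bars, at 29.6% and 36.7%, and TGT-140 the highest, at 97.3%.

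Many transcripts differed by small amounts between trained and untrained mice. The called genes had the same direction in both genotypes, which a call on the average of both favours. limma called 686 of 13575 tested probe sets at an adjusted p under 0.05 (5.05%), 343 of them higher (2.53%) and 343 lower (2.53%) in trained mice. Counted as genes, 246 of 8486 rose (2.9%) and 193 fell (2.27%). The genes that rose had a median size of 0.23 log2 (1.17-fold), and 221 of them rose by under 1.3-fold. Those that fell had a median size of 0.30 log2 (1.23-fold), and 16 of them fell by over 1.5-fold, against 5 that rose by as much. The median over all tested genes was 0.01 log2, and 52.7% of genes lay above 0. Complete separation of the mice was rare: in 7 genes (0.0825%) every measured trained mouse lay above every untrained mouse, namely Mrps12, Ndufb9, Got2, Ptcd2, Tbrg4, Haus4 and Lrp10 (Haus4 with 9 trained mice, since 1 cell was empty), and in 0 genes (0%) all trained mice lay below. Ptcd2, a mitochondrial RNA-binding protein, is named here only because it is 1 of these 7, after its values were seen.

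Of the 439 called genes, 159 were read by a probe set that its name marks as able to bind several transcripts, among them Atp5g1, Ndufb10, Mrps12, Got2, Mlx, Casq2, Vegfb, Atp1b1, Sqstm1, Arntl, Col3a1, Myh1, Tpm2 and Ttn. Without all such probe sets 355 of the remaining ones were called. Of the 174 called genes with 2 or more tested probe sets, 50 had all of them called and 156 had the same sign in all, so most of these calls rest on only some of the gene's probe sets.

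The number of calls rested on single mice. It was 331 without TGT-140, 354 without TGT-128, 369 without TGUT-131, 370 without wtt-137, 373 without WTUT-135 and 392 without TGUT-139, and it was 1083 without TGUT-145 and 1134 without WTT-144. The call held in all 20 fits with 1 mouse left out for 53.7% of the 246 genes that rose and for 36.3% of the 193 that fell. Among the 109 called genes of the selection rule, 75 were called in all 20 fits. Part of that rule takes only genes called in all 20 fits, and another part takes the smallest p. The share among the 109 is therefore raised by the selection and does not stand for all called genes. A call that was lost had an adjusted p of at most 0.0953 in those fits. Leaving out TGT-128 or TGT-140 lost 32 of the 109 calls each, TGUT-131 31, wtt-137 30 and WTUT-135 28, while leaving out any of the other 15 mice lost 0 to 26.

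Within a genotype, 5 mice against 5 gave few calls. In transgenic mice 42 probe sets were called (0.309%; 2362 at an unadjusted p under 0.05), and in wild-type mice 0 (0%; 1069 at an unadjusted p under 0.05, smallest adjusted p 0.145). The difference between the genotypes in their response was called for 0 probe sets (0%; 395 at an unadjusted p under 0.05). The TG count ranged from 2 to 764 with 1 mouse left out, the highest without TGUT-145. All 246 genes that rose and all 193 that fell had the same direction in each genotype, a property that a call on their average favours. Of the 246 that rose, 212 had an unadjusted p under 0.05 in each genotype, and the median of the 246 was 0.22 log2 in wild-type and 0.23 in transgenic mice. Of the 193 that fell, 112 did, and their medians were -0.24 and -0.35. The 2 genotypes share no array, so the difference in one was read on genes picked in the other. The p-values used for picking came from the joint fit of all group means, whose spread between mice was estimated from both genotypes. The picks were therefore not fully independent of the arrays of the other genotype. Of the 100 genes with the smallest p in wild-type mice, 76 were higher in trained mice, and 74 of these were also higher in transgenic mice (median 0.29 log2 in wild-type, 0.23 in transgenic mice). The other 24 were lower, 22 of them also in transgenic mice (median -0.30 in wild-type, -0.21 in transgenic mice). Of the 100 picked in transgenic mice, 40 were higher, and all 40 were also higher in wild-type mice (median 0.36 where they were picked, 0.25 in wild-type mice). The other 60 were lower, and 53 of these were also lower in wild-type mice, with a median of -0.49 where they were picked and -0.16 in wild-type mice. Over all tested genes the 2 training differences correlated with r = 0.522 (rho = 0.541), a description over genes, which are not independent replicates. The share of all tested genes with the same direction in both genotypes was not counted, so the counts of picked genes have no background beside them.

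**Figure D2:**
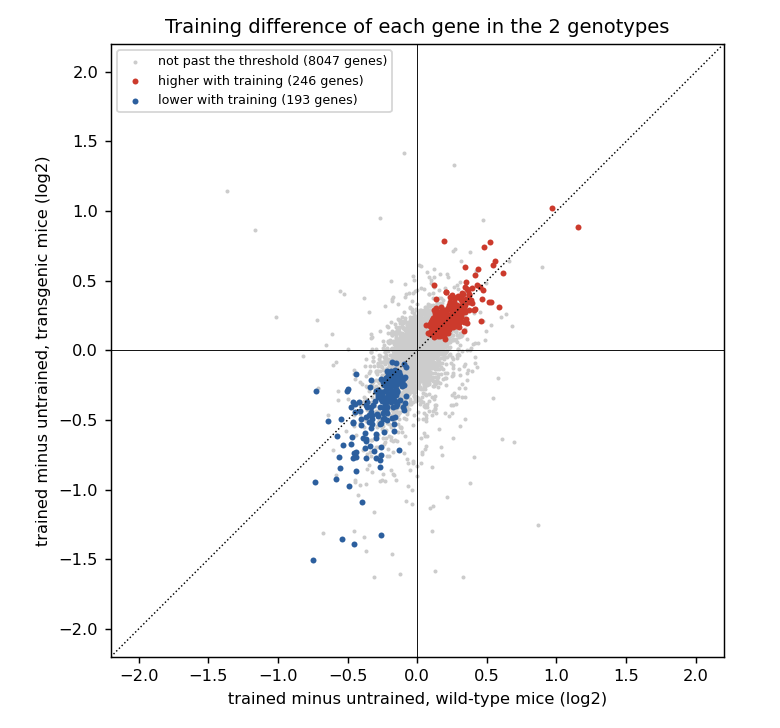
Training difference (trained minus untrained, log2) of each of 8486 genes (points) in wild-type mice (horizontal axis) and transgenic mice (vertical axis), coloured by the call on all 20 mice; the dotted line marks equal differences. The 246 genes called higher lie above 0 on both axes and the 193 called lower lie below 0 on both.

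Genes of the respiratory chain and ATP synthase rose, many of them and each by a little. Of 33 tested complex I genes 15 rose and 0 fell, of 30 genes of complexes II to IV 11 rose and 0 fell, and of 17 ATP synthase genes 9 rose and 0 fell, against 2.9% of all genes that rose. All 33, 27 of 30 and all 17 had values above 0, with medians of 0.15, 0.13 and 0.15 log2. In bulk muscle, less or more RNA per fibre and fewer or more fibres or cells of a type cannot be told apart. The medians in wild-type and transgenic mice were 0.15 and 0.18 for complex I, 0.10 and 0.14 for complexes II to IV, and 0.12 and 0.18 for ATP synthase. With 1 mouse left out, the counts that rose ran from 10 (without TGT-128) to 19 for complex I, from 8 to 13 for complexes II to IV and from 5 (without TGT-140) to 11 for ATP synthase. Each of these highest counts was found without TGUT-145, and those of the first 2 lists also without WTT-144. No member of the 3 lists fell in any of these fits. The shares over all tested genes, 2.9% higher and 2.27% lower, are the background for the list counts that follow.

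**Figure D3:**
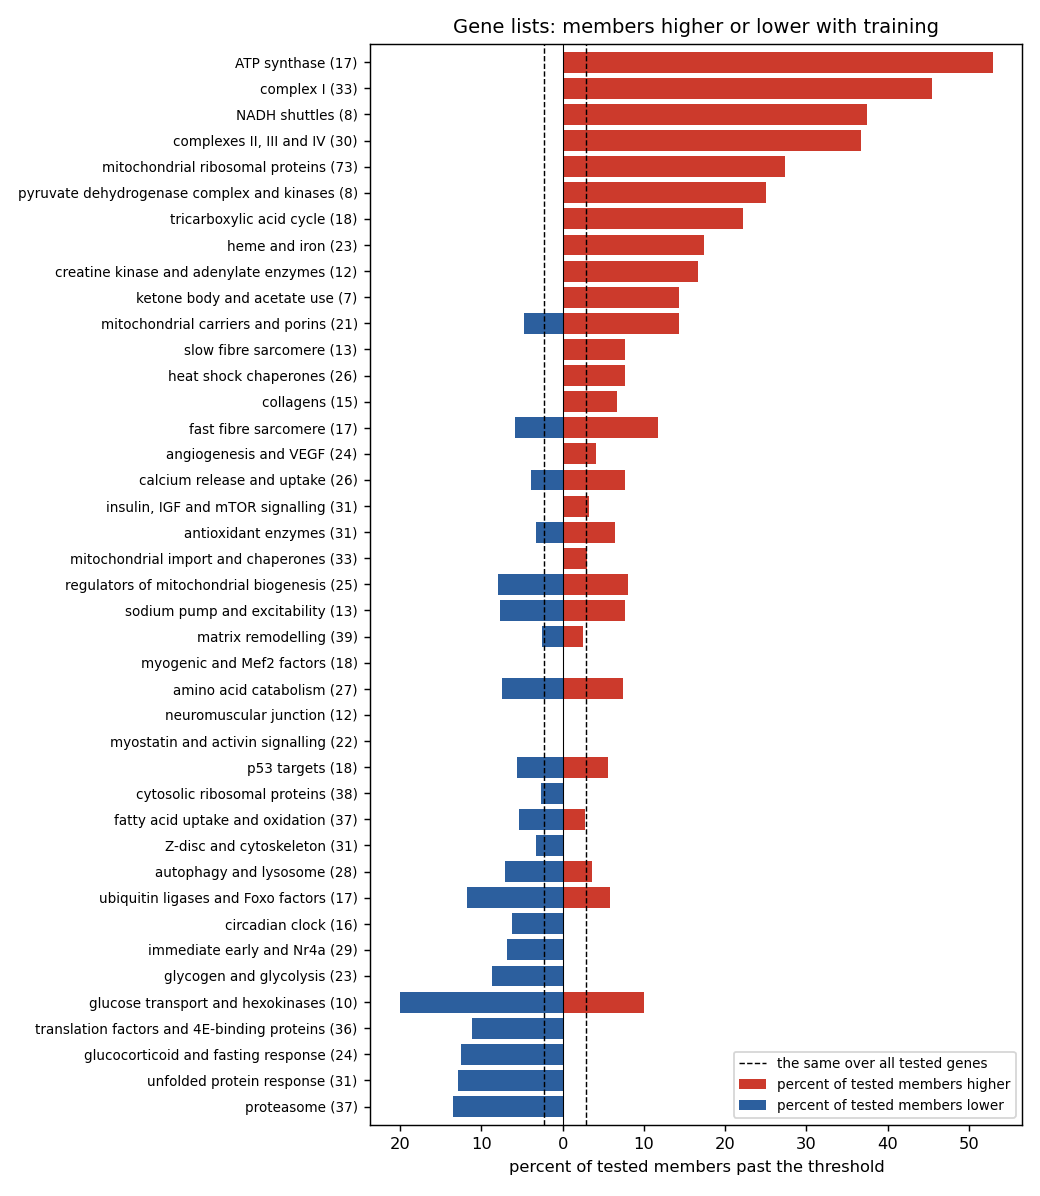
Percent of the tested members of each of 41 gene lists (number tested in brackets) that were higher (red, to the right) or lower (blue, to the left) with training; the dashed lines mark the same over all tested genes, 2.9% higher and 2.27% lower. The longest bars to the right are those of ATP synthase (52.9%), complex I (45.5%), the NADH shuttles (37.5% of only 8 genes) and complexes II to IV (36.7%).

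Atp5g1 encodes a form of the membrane ring subunit c of ATP synthase. Its intensity ran from 3672 to 4958 in untrained mice (median 4539) and from 4905 to 6232 in trained mice (median 5727). Only TGT-133 among the trained mice lay below the highest untrained mouse, TGUT-145. Atp5g1 rose by 0.36 ± 0.05 log2 (SE; 1.28-fold; adjusted p = 0.00191). Ndufb10, an accessory subunit of complex I, ran from 2072 to 2778 in untrained mice (median 2434) and from 2538 to 3455 in trained mice (median 3220). TGT-133 was again the one trained mouse inside the untrained range. Ndufb10 rose by 0.39 ± 0.06 log2 (adjusted p = 0.00191), with 0.37 ± 0.08 in wild-type and 0.40 ± 0.08 in transgenic mice. Ndufb9, also of complex I, separated the groups completely, with untrained mice at 4642 to 5675 and trained mice at 5678 to 6357, although its rise was only 0.21 ± 0.03 log2 (adjusted p = 0.00226). Sdhd anchors complex II in the inner membrane and rose by 0.33 ± 0.06. Cox6b1 of complex IV rose by 0.19 ± 0.04, and Uqcrq of complex III by 0.24 ± 0.05.

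Sdhaf4, an assembly factor that readies the catalytic subunit of complex II, had the second largest rise, after Atp1b1, of the genes called in all 20 fits with 1 mouse left out. Its intensity ran from 240.5 to 442.6 in untrained mice (median 329.2) and from 404 to 652.5 in trained mice (median 535.1). TGT-133 alone overlapped the untrained range, and WTUT-136 and TGUT-145 were the highest untrained mice. The rise was 0.58 ± 0.10 log2 (1.5-fold; adjusted p = 0.00396), with 0.61 ± 0.14 in wild-type and 0.55 ± 0.14 in transgenic mice. Cmc2, which belongs to a family of small proteins of complex IV assembly, ran from 248.3 to 345.3 in untrained and from 334.6 to 498.4 in trained mice, with medians of 291 and 404.2. It rose by 0.40 ± 0.06 log2 (adjusted p = 0.00317). Mtfp1, a protein of the inner membrane involved in mitochondrial fission, ran from 339.4 to 575.4 in untrained and from 521 to 905.9 in trained mice. TGT-133 and WTT-144 were the 2 trained mice inside the untrained range, and Mtfp1 rose by 0.58 ± 0.11 log2 (1.49-fold; adjusted p = 0.00704).

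**Figure D4:**
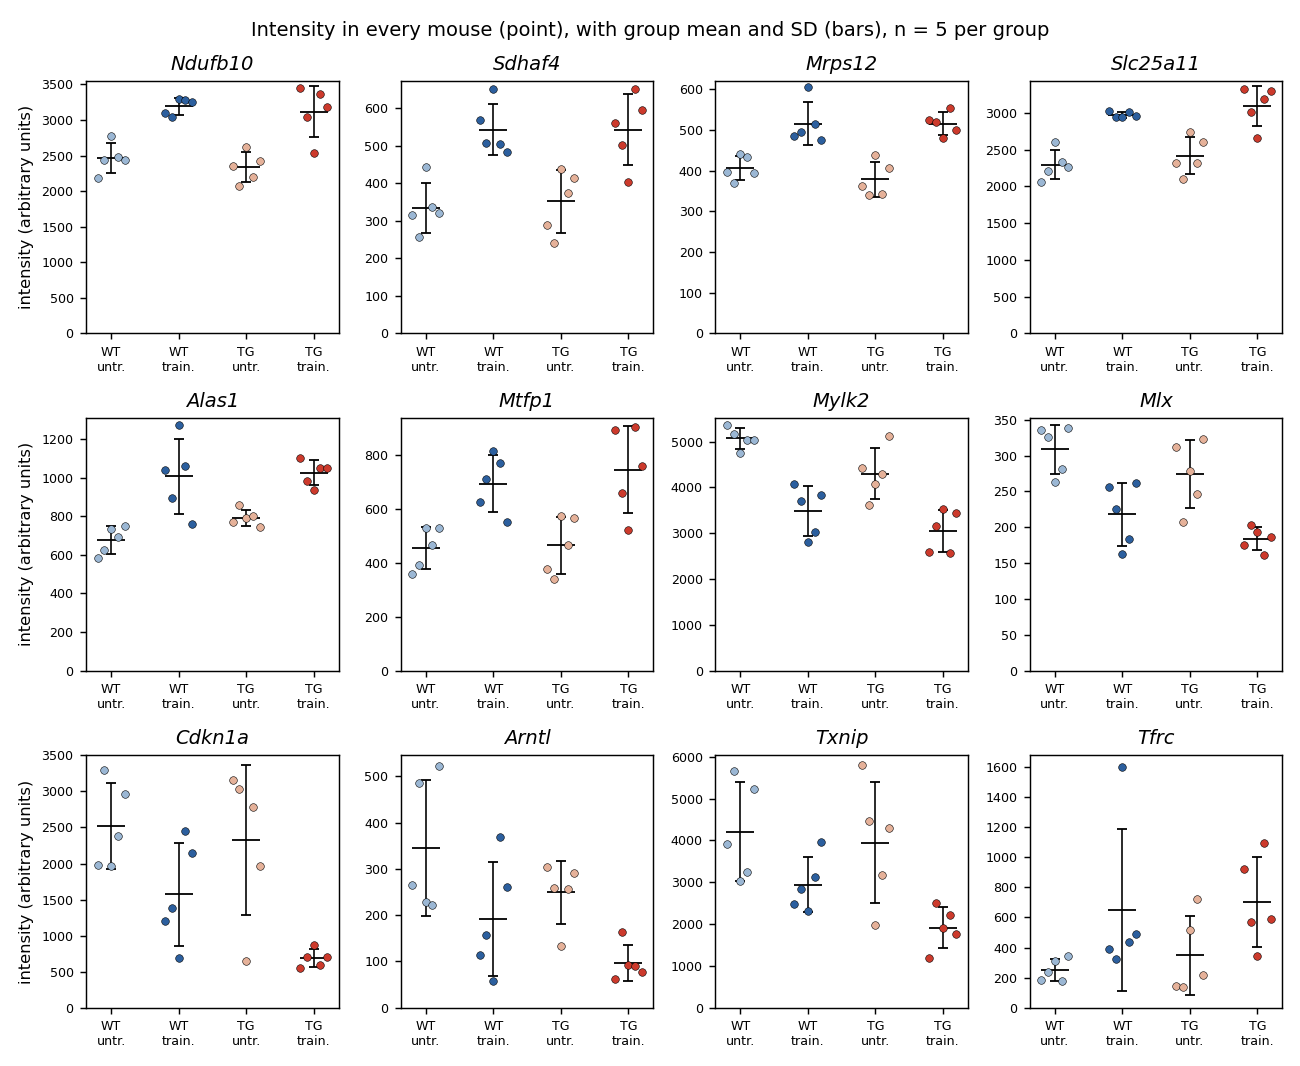
Intensity (arbitrary units, axes from 0) of 12 genes in every mouse (points), with the mean and SD of each group of 5 (bars). Ndufb10, Sdhaf4, Mrps12, Slc25a11, Alas1, Mtfp1 and Tfrc are higher in trained mice of both genotypes, and Mylk2, Mlx, Cdkn1a, Arntl and Txnip are lower; in Cdkn1a, Arntl and Txnip the lowest untrained mouse is TGUT-145.

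The promoters of these genes were read for 5 short motifs, since many members rose together. RefSeq windows of assembly GRCm38.p6 hold 300 bases, from 250 before to 50 after a gene's start. Of 8486 tested genes 6827 had a window, and the 5390 with exactly 1 were searched on both strands. AAGGTCA, the core bound by ERR receptors, was found in 167 of 5390 windows (3.1%), in 14 of 185 windows of genes that rose (7.57%) and in 4 of those of genes that fell (2.99%). Of the 35 respiratory chain and ATP synthase genes that rose, 28 had a single window and 5 of these held it (17.9%), as did 0 of 14 mitochondrial ribosomal genes that rose. GCGCATGC, the core of the NRF1 motif, was in 5.64% of all windows, 7.03% of those of genes that rose, 4.48% of those of genes that fell and 14.3% (4 of 28) of the respiratory windows. CACGTG, the E-box bound by clock factors and by MLX among others, was in 10.2% of all windows, 4.86% of those of genes that rose and 10.5% of those of genes that fell. TTATGTAA, the D-box of clock output factors, was in 0.52%, 0% and 0.75%, and GAANNTTC, a core of the heat shock element, in 6.14%, 8.11% and 8.21%. None of these 5 strings holds another of them. A match is a description of letters and shows no binding.

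The windows around AAGGTCA in the 5 respiratory genes are shown because this string had the largest share there relative to all windows; they were chosen after their values were seen. Each runs 5′ to 3′ on the gene's strand, and capitals mark the motif, which reads TGACCTT where it lies on the other strand. The windows of Atp5e, Atp5k and Sdhd lie after the annotated start and those of Atp5g3 and Ndufs5 before it. They lie at chr2:174464060-174464088, chr2:73911345-73911405, chr5:108434359-108434387, chr4:123718381-123718436 and chr9:50603800-50603824, in the order shown and all on the minus strand.
Atp5e: ctactcaggccTGACCTTcctgctgccgg
Atp5g3: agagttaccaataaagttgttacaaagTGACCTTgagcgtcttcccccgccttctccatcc
Atp5k: cttccggcgcgAAGGTCAcggacaaaatg
Ndufs5: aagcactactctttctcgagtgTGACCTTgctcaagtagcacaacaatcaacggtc
Sdhd: gggttgtagagTGACCTTgagccct
These 5 genes rose by 0.15, 0.15, 0.16, 0.22 and 0.33 log2, and the calls of Atp5g3, Atp5k, Ndufs5 and Sdhd held in each of the 20 fits with 1 mouse left out, that of Atp5e in 12.

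Among the genes named by the selection rule, the 2 that rose and the 2 that fell with the smallest p and any of the 5 motifs were Atp5g1, Adamtsl5, Mlx and Zscan26. Their windows show which motif each holds, with the motif in capitals: an E-box in Atp5g1 (chr11:96075643-96075702, minus strand) and in Mlx (chr11:101087223-101087282, plus strand), AAGGTCA in Adamtsl5 (chr10:80348618-80348678, minus strand), GAANNTTC in Mlx (chr11:101087054-101087115, plus strand) and TTATGTAA in Zscan26 (chr13:21453815-21453876, minus strand). All 5 motifs lie before the annotated start.
Atp5g1: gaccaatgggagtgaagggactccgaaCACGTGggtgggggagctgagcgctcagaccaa
Adamtsl5: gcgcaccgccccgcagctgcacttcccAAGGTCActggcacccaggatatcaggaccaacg
Mlx, E-box: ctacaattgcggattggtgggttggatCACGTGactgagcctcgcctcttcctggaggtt
Mlx, heat shock core: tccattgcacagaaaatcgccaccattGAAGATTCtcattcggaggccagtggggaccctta
Zscan26: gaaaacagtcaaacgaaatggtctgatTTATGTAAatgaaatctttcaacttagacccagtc
An E-box thus stood before a gene that rose and before one that fell, and the 4 genes share no motif except that one.

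Fuel entry into the mitochondrion moved in the same direction at a few steps. Of 8 tested genes of the NADH shuttles, which carry the electrons of cytosolic NADH inward, 3 rose (37.5%, against 2.9% of all genes) and 0 fell. All 3 act in the malate-aspartate shuttle. Slc25a11, the carrier of malate and 2-oxoglutarate, ran from 2058 to 2741 in untrained mice (median 2318) and from 2652 to 3318 in trained mice (median 3010). Here too TGT-133 lay inside the untrained range, below TGUT-145. Slc25a11 rose by 0.36 ± 0.05 log2, with 0.37 ± 0.07 in wild-type and 0.35 ± 0.07 in transgenic mice (adjusted p = 0.00191 for both together). Got2, the mitochondrial aspartate aminotransferase, separated the groups, with 4255 to 5334 in untrained and 5351 to 6199 in trained mice. It rose by 0.27 ± 0.04 (adjusted p = 0.00317), and Mdh1, the cytosolic malate dehydrogenase, by 0.30 ± 0.05 (adjusted p = 0.0047). Got1, the cytosolic partner of Got2, differed by 0.00 log2 and the glycerol phosphate shuttle enzymes Gpd1 and Gpd2 by 0.10 and -0.01, none past the threshold.

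In the pyruvate dehydrogenase complex, which admits pyruvate to the citrate cycle, Dlat and Pdhb rose (2 of 8 tested genes of the complex and its kinases, 0 lower). Dlat, the acetyltransferase core, ran from 642.1 to 1173 in untrained mice (median 827.9) and from 967.7 to 1384 in trained mice (median 1233). The groups overlapped, with TGUT-145 the highest untrained and TGT-133 the lowest trained mouse. Dlat rose by 0.45 ± 0.10 log2 (1.36-fold; adjusted p = 0.0162), and Pdhb by 0.20 ± 0.04 (adjusted p = 0.00847). Pdk4, a kinase that switches the complex off, ran from 3494 to 10441 in untrained mice (median 8726) and from 1867 to 8331 in trained mice (median 5487). TGUT-145 was the lowest untrained mouse and the next stood at 7176. The difference of -0.69 ± 0.21 log2 did not pass the threshold (adjusted p = 0.0594, passed in 1 of the 20 fits with 1 mouse left out). Of 18 genes of the citrate cycle 4 rose (22.2%, against 2.9% of all genes) and 0 fell. Dlst, Cs and the complex II subunits Sdhd and Sdhb were those that rose, and 17 of the 18 had values above 0 (median 0.13 log2). Dlst, a core subunit of the 2-oxoglutarate dehydrogenase complex, rose by 0.28 ± 0.06 (adjusted p = 0.0111) in every fit, while Cs and Sdhb were called in 9 and 8 of the 20 fits. The list's count ran from 2 (in 10 of the fits) to 8 (without TGUT-145).

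Some genes of the mitochondrial ribosome rose. Of 73 tested mitochondrial ribosomal protein genes 20 rose (27.4%, against 2.9% of all genes) and 0 fell, and 68 lay above 0. The median over the list was 0.11 log2, with 0.14 in wild-type and 0.10 in transgenic mice, and 13 of the 20 were called in all fits with 1 mouse left out. The count ran from 14 (without any of TGT-128, TGT-140, TGT-143, TGUT-131, WTUT-130 or WTUT-135) to 25 (without TGUT-145). Mrps12, of the small subunit, ran from 340.3 to 440.3 in untrained mice (median 396) and from 474.7 to 606.8 in trained mice (median 507.1), so that the groups did not overlap. It rose by 0.34 ± 0.05 log2 (1.27-fold; adjusted p = 0.00197). Mrpl34, of the large subunit, ran from 338.2 to 501.3 in untrained and from 490 to 756.5 in trained mice, with only TGT-133 inside the untrained range, and rose by 0.42 ± 0.07 (adjusted p = 0.00396). Tbrg4, a mitochondrial RNA-binding protein outside the list, separated the groups with a rise of only 0.14 ± 0.03 (adjusted p = 0.0115). The ribosomal proteins of the cytosol gave other counts: of 38 tested, 0 rose and 1 fell, Rpl4 by 0.17 ± 0.04 log2 units (adjusted p = 0.0146), and their median was -0.02.

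Import machinery, carriers and regulators held few calls. Of 33 import and chaperone genes 1 rose, Timm44, which tethers the import motor to the inner membrane, by 0.23 ± 0.05 log2 (adjusted p = 0.0153). The count was 5 without TGUT-145. Of 21 carriers and porins 3 rose, Slc25a11, Ckmt2 and Ppif, and 1 fell, Ucp3. Ppif, the cyclophilin that opens the permeability transition pore, ran from 350.7 to 866.9 in untrained and from 605.9 to 1055 in trained mice, with overlap. It rose by 0.49 ± 0.12 log2 (adjusted p = 0.0269), a call lost without TGT-128, TGT-140, TGUT-131 or TGUT-139 (adjusted p up to 0.0565). Its difference was 0.19 ± 0.15 in wild-type and 0.79 ± 0.15 in transgenic mice, and the test of that difference gave an unadjusted p of 0.0113 and an adjusted p of 0.9999 over all probe sets.

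Among 25 tested regulators of mitochondrial biogenesis, Sirt3 and Esrra rose and Pprc1 and Gabpa fell. That was 8% in each direction, against 2.9% higher and 2.27% lower over all genes. Sirt3, the main deacetylase of the mitochondrial matrix, rose by 0.37 ± 0.08 log2 (adjusted p = 0.0115), and Esrra, which encodes ERR alpha, by 0.24 ± 0.05 (adjusted p = 0.0161). Pprc1, a member of the PGC-1 coactivator family known as PRC, ran from 233.6 to 427.8 in untrained mice (median 285) and from 159.5 to 312.1 in trained mice (median 186). In 8 trained mice it lay below the lowest untrained mouse, and WTT-144 and wtt-134 were the exceptions. Pprc1 fell by 0.44 ± 0.08 log2 units, with -0.44 ± 0.12 in each genotype (adjusted p = 0.00745 for both together). Gabpa, the DNA-binding subunit of GABP, fell by 0.28 ± 0.07 (adjusted p = 0.0292, a call lost without TGT-128, TGT-140, TGUT-131 or wtt-137). The other 2 members of the PGC-1 family were not called: Ppargc1a differed by 0.17 ± 0.26 log2 (adjusted p = 0.788) and Ppargc1b by 0.15 (adjusted p = 0.568). Ppargc1a was lowest in the untrained mice TGUT-139 (287), TGUT-131 (302) and WTUT-138 (314). The other untrained mice ran from 632 to 1568 and the trained mice from 677 to 1339. Tfam, the packaging factor of mitochondrial DNA, differed by 0.18 and Nrf1 by 0.01, neither past the threshold.

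Heme synthesis and iron uptake rose at single steps. Of 23 genes of heme and iron metabolism 4 rose (17.4%, against 2.9% of all genes) and 0 fell. Alas1, the first and rate-limiting enzyme of heme synthesis outside red cells, ran from 581.3 to 856.6 in untrained mice (median 748.6) and from 759.8 to 1273 in trained mice (median 1044). Only WTT-144 among the trained mice lay inside the untrained range. Alas1 rose by 0.43 ± 0.07 log2 (1.35-fold; adjusted p = 0.00396). Tfrc, the transferrin receptor that brings iron into cells, ran from 137.5 to 725.1 in untrained mice (median 227.4) and from 321.9 to 1602 in trained mice (median 532.5), with 7 trained mice inside the untrained range. Its rise of 0.99 ± 0.28 log2 (1.99-fold; adjusted p = 0.0417) was called in 8 of the 20 fits with 1 mouse left out. Uros, a later enzyme of the heme pathway, rose by 0.14 ± 0.03, and Isca1, of iron-sulfur cluster assembly, by 0.23 (called in 5 of the 20 fits). The count of 4 ran from 2, in 8 of the fits, to 6, without TGUT-145 or WTT-144. Myoglobin (Mb), the heme protein that stores oxygen in muscle, differed by 0.24 ± 0.07 log2 (adjusted p = 0.0523), just outside the threshold. The erythroid marker list, red cells being rich in heme enzymes, had summed intensities of 587.1 to 1994 in untrained and 1524 to 1999 in trained mice, with 1 of 4 tested genes higher (Car2, carbonic anhydrase 2, 0.25 log2); its part in the heme values was not tested.

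Enzymes of energy transfer and defence against oxygen radicals gave single calls. Ckmt2, the creatine kinase of the mitochondrial intermembrane space, ran from 4538 to 6843 in untrained mice (median 6369) and from 6819 to 9064 in trained mice (median 8197). Only TGT-133 lay inside the untrained range. Ckmt2 rose by 0.37 ± 0.06 log2 (1.29-fold; adjusted p = 0.00396), and Ak3, the adenylate kinase of the matrix, by 0.30 ± 0.06 (adjusted p = 0.011); they were the 2 of 12 genes of that list that passed. Of 31 antioxidant genes Sod2 and Prdx2 rose, by 0.28 ± 0.05 and 0.25 ± 0.06, and Gsr, glutathione reductase, fell by 0.27 ± 0.07 log2 units. Their adjusted p values were 0.00704, 0.027 and 0.0299. The shares of the list were 6.45% higher and 3.23% lower, against 2.9% and 2.27% of all genes. The list's median was -0.06 log2 and 12 of 31 members lay above 0, so the mitochondrial Sod2 and the list as a whole had opposite signs.

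Fuel genes outside the mitochondrial core moved little or in both directions. Of 37 genes of fatty acid uptake and oxidation 1 rose (2.7%, near the 2.9% of all genes) and 2 fell (5.41%, against 2.27%). The list's median was 0.04 log2, against 0.01 over all genes. Acot13, a thioesterase of the mitochondrion, rose by 0.36 ± 0.07 (adjusted p = 0.0097). Acot2, another mitochondrial thioesterase, fell by 0.44 ± 0.10 log2 units (adjusted p = 0.0182), and the uncoupling protein Ucp3 by 0.54 ± 0.15 (adjusted p = 0.0456, with the call held in 8 of the 20 fits). Both are known to follow fatty acid supply. Of 23 genes of glycogen use and glycolysis 0 rose and 2 fell, Phkb and Fbp2, each by 0.30 ± 0.08 log2 units; with 1 mouse left out the count ran from 0 to 3. Acss2, which activates acetate, rose by 0.31 ± 0.07 (adjusted p = 0.0161). Of 27 genes of amino acid breakdown 2 rose (Got2 and Gpt) and 2 fell (Gpt2 and Oat, the Oat call held in 5 of the 20 fits). Among transaminases, Got2 and Gpt, an alanine aminotransferase, rose by 0.27 each, while Gpt2, the mitochondrial alanine aminotransferase, fell by 0.42 ± 0.11 (adjusted p = 0.0362, with the call held in 9 of the 20 fits). Gpt2 differed by -0.13 ± 0.14 in wild-type and -0.71 ± 0.14 in transgenic mice, and that difference had an unadjusted p of 0.00627 and an adjusted p of 0.9999.

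Of 10 genes of glucose transport and hexokinases 1 rose, Hk1, and 2 fell, Txnip and Slc2a3. Txnip, an arrestin-like protein that limits glucose uptake and is induced by glucose, ran from 1972 to 5805 in untrained mice (median 4100) and from 1181 to 3960 in trained mice (median 2399). TGUT-145 was the lowest untrained and WTT-144 the highest trained mouse. Txnip fell by 0.73 ± 0.18 log2 units (1.66-fold; adjusted p = 0.0254), a call lost without WTUT-135 (adjusted p = 0.0512). Mlx, the partner of the glucose sensors ChREBP and MondoA, which drive Txnip, ran from 207.9 to 338.7 in untrained mice (median 296.7) and from 161.9 to 261.2 in trained mice (median 189.9). In 7 trained mice it lay below the lowest untrained mouse. Mlx fell by 0.42 ± 0.07 log2 units (adjusted p = 0.00434). Hk1, a hexokinase, rose by 0.14 log2 (adjusted p = 0.0483, with the call held in 4 of the 20 fits). Slc2a3, a glucose transporter known from neurons and blood cells, fell by 0.38 ± 0.08 (adjusted p = 0.0111), and Slc2a4, the insulin-responsive transporter of muscle, differed by -0.06 ± 0.04 (adjusted p = 0.474). Hk2, the hexokinase known to follow exercise and insulin, differed by 0.24 ± 0.24 (adjusted p = 0.643). Hk2 was lowest in the same untrained mice as Ppargc1a, TGUT-139 (1007), TGUT-131 (1169) and WTUT-138 (1798). All other mice ran from 3055 to 4948. Grb14, an inhibitor of the insulin receptor, rose by 0.28 ± 0.07 (adjusted p = 0.0187), the only call among 31 genes of insulin and mTOR signalling.

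Contractile genes changed singly. Of 13 slow fibre genes 1 rose (Casq2, a calcium store protein) and 0 fell (median 0.07 log2), and of 17 fast fibre genes 2 rose and 1 fell (median 0.01). Mylk2, the kinase that phosphorylates the regulatory light chain of fast myosin, ran from 3609 to 5371 in untrained mice (median 4893) and from 2560 to 4070 in trained mice (median 3299). In 7 trained mice it lay below the lowest untrained mouse. Mylk2 fell by 0.52 ± 0.08 log2 units (1.43-fold; adjusted p = 0.00191), with -0.54 ± 0.11 in wild-type and -0.49 ± 0.11 in transgenic mice. Tpm2, a tropomyosin, rose by 0.28 ± 0.07 (adjusted p = 0.0249), and the type IIx myosin heavy chain Myh1 by 0.21 ± 0.05 (adjusted p = 0.0244). The other adult myosin heavy chains were not called: Myh4, of type IIb fibres, differed by 0.01 ± 0.02, Myh2, of type IIa, by 0.36 ± 0.16 (adjusted p = 0.205), and Myh7, of slow fibres, by 0.00 ± 0.25 (adjusted p = 0.999). Ttn, the giant spring protein titin, fell by 0.14 ± 0.03 (adjusted p = 0.00954) and was the 1 call among 31 Z-disc and cytoskeleton genes.

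In calcium handling, Casq2 and Letm1 rose and Ryr1 fell among 26 tested genes. Casq2, the calcium store protein typical of slow and cardiac muscle, ran from 140.3 to 253.6 in untrained mice (median 185.3) and from 191.3 to 350.5 in trained mice (median 265.4), with 5 trained mice inside the untrained range. Within each genotype the groups did not overlap. Wild-type mice ran from 182.9 to 253.6 untrained and from 281.3 to 350.5 trained. Transgenic mice ran from 140.3 to 186.6 untrained and from 191.3 to 249.4 trained. Such separation within each genotype was also found in Alas1 and Adamtsl5, and its share of all tested genes was not counted. Casq2 rose by 0.36 ± 0.06 log2 (adjusted p = 0.00324). Letm1, an ion exchanger of the inner mitochondrial membrane, ran from 329 to 467.9 in untrained and from 434.7 to 610 in trained mice and rose by 0.35 ± 0.07 (adjusted p = 0.00733). Ryr1, the calcium release channel, had the smallest called fall, 0.10 ± 0.02 log2 units (adjusted p = 0.0162), with 9 trained mice below the lowest untrained mouse.

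Of 13 tested genes of the sodium pump and excitability, 1 rose (Atp1b1) and 1 fell (Atp1b2), with a median of 0.01 log2. Atp1b1, a beta subunit of the sodium pump, ran from 542.6 to 1582 in untrained mice (median 1157) and from 1286 to 2115 in trained mice (median 1740). The trained mice TGT-133, TGT-132 and WTT-144 lay inside the untrained range. Atp1b1 rose by 0.65 ± 0.15 log2 (1.57-fold; adjusted p = 0.018), while Atp1b2, another beta subunit, fell by 0.37 ± 0.10 (adjusted p = 0.0314, with the call held in 13 of the 20 fits). Cav3, Dmpk and Lynx1, outside that list, rose. Cav3, the caveolin of muscle membranes, ran from 199.3 to 434 in untrained mice (median 262.1) and from 325.1 to 511.8 in trained mice (median 406.1), with TGUT-145 the highest untrained mouse. Cav3 rose by 0.51 ± 0.09 (1.42-fold; adjusted p = 0.00728). Dmpk, the kinase gene whose repeat expansion causes myotonic dystrophy, rose by 0.48 ± 0.10 (adjusted p = 0.0127), and Lynx1, which acts on nicotinic receptors, by 0.45 ± 0.10 (adjusted p = 0.0164). Of 12 neuromuscular junction genes and of 18 myogenic and Mef2 factors 0 passed in either direction.

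Genes of protein breakdown mostly had values below 0, with few calls. Of 37 proteasome genes 5 fell (Psma2, Psmd4, Psmd2, Psmc6 and Psmb7) and 0 rose, against 2.27% of all genes that fell, and 33 of the 37 had values below 0 (median -0.16 log2, -0.14 in wild-type and -0.21 in transgenic mice). The count of 5 was 0 without TGT-128, TGT-140, TGUT-131 or wtt-137, 9 without TGUT-145, 11 without WTT-144 and 17 without TGUT-146. Psma2, a subunit of the core ring, ran from 1167 to 1899 in untrained mice (median 1540) and from 1007 to 1460 in trained mice (median 1145), with TGUT-146 and TGUT-145 as the 2 lowest untrained mice. It fell by 0.31 ± 0.08 log2 units (adjusted p = 0.0255). Of 28 autophagy and lysosome genes Map1lc3a rose and Sqstm1 and Ulk1 fell. Sqstm1, a receptor that ties ubiquitin to autophagy, ran from 3444 to 5779 in untrained mice (median 5377) and from 2631 to 4659 in trained mice (median 3960), with TGUT-146 the lowest untrained mouse. It fell by 0.42 ± 0.10 (1.33-fold; adjusted p = 0.0184), in every fit. Map1lc3a, an LC3 protein of the autophagosome, rose by 0.25 ± 0.06 (adjusted p = 0.0159), and Ulk1, the starting kinase, fell by 0.76 ± 0.21 (called in 6 of the 20 fits). Of 17 ubiquitin ligases and Foxo factors Stub1 rose and Trim54 and Foxo3 fell, calls held in 15, 10 and 6 of the 20 fits. The count that fell was 0 in 10 of the fits and 6 without WTT-144. Fbxo32, the atrophy ligase atrogin-1, differed by -0.74 ± 0.30 (adjusted p = 0.147).

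A few translation and stress genes fell. Of 36 translation factors and 4E-binding proteins 4 fell (11.1%, against 2.27% of all genes) and 0 rose (median -0.08 log2). The count was 1 in 11 of the 20 fits with 1 mouse left out, a share near that of all genes, and 7 without WTT-144. Eif4b, a helper of the mRNA helicase, fell by 0.21 ± 0.04 log2 units, with 9 trained mice below the lowest untrained mouse (adjusted p = 0.00762). Larp1, a binder of ribosomal protein mRNAs, ran from 920.1 to 1276 in untrained mice and from 794.7 to 1006 in trained mice, and 5 trained mice lay below every untrained mouse. It fell by 0.31 ± 0.05 (adjusted p = 0.00586). Cap-dependent translation is held back by the product of Eif4ebp1, which fell by 0.60 ± 0.17 (called in 7 of the 20 fits). Of 31 genes of the unfolded protein response 4 fell (12.9%, against 2.27% of all genes) and 0 rose. Those that fell were Syvn1, Atf4, Ppp1r15b and Xbp1. The list as a whole had a median of 0.01 log2, and 16 of its 31 genes lay above 0. With 1 mouse left out the count that fell ran from 1, in 10 of the 20 fits, to 6. Syvn1, a ligase of endoplasmic reticulum quality control, was called in every fit with a fall of 0.20 ± 0.04 (adjusted p = 0.00754). Zfand2a, an arsenite-inducible protein linked to the proteasome, ran from 179.1 to 828.2 in untrained mice (median 548.1) and from 149.4 to 509.5 in trained mice (median 264.5). TGUT-145 was the lowest untrained mouse and TGT-140 the lowest trained mouse, and Zfand2a fell by 0.67 ± 0.15 (1.59-fold; adjusted p = 0.0146). Of 26 heat shock chaperones Hspa4l and Hspb2 rose, by 0.21 ± 0.05 and 0.28 ± 0.08, and 0 fell, while 10 lay above 0. The Hspb2 call held in 5 of the 20 fits. The list's median was -0.10 log2, with -0.13 in wild-type and 0.14 in transgenic mice, a difference that was not tested. Of 22 genes of myostatin and activin signalling 0 passed in either direction.

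Cdkn1a and Arntl had the largest falls of all genes called in every fit. Cdkn1a encodes the cell cycle inhibitor p21, a target of p53 and of FoxO factors. Its intensity ran from 654.6 to 3295 in untrained mice (median 2581) and from 548.8 to 2450 in trained mice (median 787.3). The untrained mouse at 654.6 was TGUT-145, and the next lowest stood at 1962; the 2 highest trained mice, WTT-141 and WTT-144, lay inside the range of the other untrained mice. Cdkn1a fell by 1.13 ± 0.25 log2 units (2.19-fold; adjusted p = 0.0162), with -0.75 ± 0.35 in wild-type and -1.51 ± 0.35 in transgenic mice, and that difference was not called (unadjusted p = 0.14). Of 18 tested genes in the p53 list Cdkn1a was the only one that fell. The only one that rose was Trp53inp2, which acts in autophagy (0.61 ± 0.15, with the call held in 16 of the 20 fits). Its place in the list is not taken to mean that p53 drives it.

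Arntl encodes BMAL1, the activator at the core of the circadian clock, whose level cycles through the day. It ran from 133.2 to 522 in untrained mice (median 262.4) and from 58.75 to 367.7 in trained mice (median 103.4). TGUT-145 was the lowest untrained mouse, and WTT-141 and WTT-144 were the highest trained mice, as in Cdkn1a. Arntl fell by 0.84 ± 0.20 log2 units (1.79-fold; adjusted p = 0.0205), with -0.73 ± 0.29 in wild-type and -0.94 ± 0.29 in transgenic mice. It was the 1 call among 16 clock genes, of which 6 had values above 0. Dbp, a clock output gene that peaks when Arntl is low, differed by 0.71 ± 0.31 (adjusted p = 0.196). Usp2, another output gene, differed by 0.65 (adjusted p = 0.128). Dbp was uneven within the groups. Among untrained mice TGUT-145 stood at 402.7 and TGUT-146 at 461, and the others ran from 83 to 114.2. In trained wild-type mice wtt-137 stood at 727.5 and the others, WTT-144 among them, ran from 74.02 to 127.1. Trained transgenic mice ran from 145.9 to 909.7, with TGT-128 and TGT-140 the highest. How far this split in Dbp goes with the other differences was not tested. Per1 and Nr1d1, repressors of the clock loop, differed by -0.15 ± 0.10 and -0.12 ± 0.09, with adjusted p of 0.43 and 0.495. The times of day at which the groups were sampled are not given in the labels, and the part of sampling time in the other differences was not tested.

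Genes that respond to glucocorticoids and fasting were mostly at lower values in trained mice. Of 24 tested genes 3 fell (Klf9, Cebpb and Foxo3; 12.5%, against 2.27% of all genes) and 0 rose, and 2 lay above 0, against 52.7% of all genes. The median was -0.41 log2, the lowest of the 41 lists, with -0.15 in wild-type and -0.66 in transgenic mice; that difference was not tested. The count was 0 in 10 of the 20 fits with 1 mouse left out, among them those without TGT-128, TGT-140 or wtt-137, and 7 without WTT-144. Klf9, a factor induced by glucocorticoids, fell by 0.41 ± 0.11 log2 units (adjusted p = 0.0362, with the call held in 10 of the 20 fits), and Cebpb by 0.47 ± 0.13 (adjusted p = 0.0445, in 6). Pdk4, Fbxo32, Foxo3 and Ulk1 are also known to respond to fasting. Feeding state is not given in the labels, and the part of these genes' movement in the falls of the proteasome, autophagy and Cdkn1a was not tested. Of 29 immediate early and Nr4a genes, which mark recent activity or handling, 2 fell (Klf9 and Zfp36) and 0 rose. The Zfp36 call held in 5 of the 20 fits.

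Matrix and vessel genes gave few calls. Col3a1, a fibrillar collagen, ran from 174.2 to 1143 in untrained mice (median 313.4) and from 337.6 to 1937 in trained mice (median 832.9). The highest untrained mouse was TGUT-145 and the highest trained mouse wtt-137, and the groups overlapped in all trained mice but that one. Col3a1 rose by 1.02 ± 0.27 log2 (2.03-fold; adjusted p = 0.0352), the largest rise of any called gene, yet it was called in 7 of the 20 fits with 1 mouse left out. It was the only call among 15 collagens, whose median was 0.02, and the only one among 10 tested fibroblast markers. The median of those markers was 0.17 log2, and the summed intensity of the list ran from 7131 to 12922 in untrained and from 9342 to 13129 in trained mice. Its part in the Col3a1 value was not tested. Of 39 matrix remodelling genes Sparcl1, a matrix glycoprotein, rose by 0.33 log2 and Htra1, a secreted protease, fell by 0.79 ± 0.22 log2 units (adjusted p = 0.0394), calls held in 7 and 6 of the 20 fits. Htra1 differed by -0.26 in wild-type and -1.33 in transgenic mice (unadjusted p = 0.0101 for that difference). Vegfb, a growth factor of the VEGF family abundant in oxidative tissue, ran from 750.9 to 1148 in untrained mice (median 969) and from 1006 to 1401 in trained mice (median 1224), with only TGT-133 inside the untrained range. It rose by 0.34 ± 0.07 (1.27-fold; adjusted p = 0.00889), in every fit. Vegfa, the main driver of capillary growth, differed by 0.11 ± 0.05 (adjusted p = 0.199), and Vegfb was the 1 call among 24 angiogenesis genes. Of 11 endothelial markers 1 fell, Cldn5, a tight junction claudin (-0.54 log2, with the call held in 6 of the 20 fits), and their summed intensity ran from 3970 to 4980 in untrained and from 3873 to 4723 in trained mice. Gas6, a ligand of the TAM receptors, ran from 448.6 to 802.8 in untrained mice (median 539.9) and from 621.6 to 925.4 in trained mice (median 761.9), with TGUT-145 the highest untrained mouse. It rose by 0.44 ± 0.08 (adjusted p = 0.00745).

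Markers of other cell types gave few calls. Of 13 macrophage, 6 T and NK cell, 2 B cell, 8 neutrophil, 11 adipocyte, 9 smooth muscle, 6 Schwann cell and 5 satellite cell markers that passed the filter on level, 0 rose and 0 fell. Of the lymphocyte markers on the array, 6 of 13 for T and NK cells and 2 of 7 for B cells passed that filter. H2-K1, a class I MHC gene, differed by 0.05 ± 0.15 log2 with training (adjusted p = 0.91), and the labels do not say whether it is the transgene. The 14 skeletal muscle fibre markers had a median of 0.00 log2, with 1 lower, Ryr1. The macrophage sum was 3771 to 4328 in untrained and 3828 to 5148 in trained mice, the adipocyte sum 16530 to 33581 and 13364 to 34146, and the ranges of all trained and all untrained mice overlapped for each of the 12 lists. Within wild-type mice 2 of the sums did not overlap: the macrophage sum was 3799 to 4267 in untrained and 4383 to 5148 in trained mice, and the smooth muscle and pericyte sum 12647 to 13631 and 13643 to 14967. In transgenic mice both overlapped, and the part of these cells in the other differences was not tested.

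Several calls that held in all 20 fits lay outside these groups. Adamtsl5, a secreted matrix protein, ran from 181.7 to 219.2 in untrained mice and from 215.2 to 306.9 in trained mice, and 9 trained mice lay above the highest untrained mouse. It rose by 0.31 ± 0.04 log2 (adjusted p = 0.00191). Rangrf, a small Ran-binding protein that aids the traffic of a sodium channel, rose by 0.36 ± 0.06 (adjusted p = 0.00317), and Smtn, smoothelin of smooth and striated muscle, by 0.47 ± 0.12 (adjusted p = 0.0238). Among genes that fell in every fit were Park7, a redox-sensitive chaperone linked to Parkinson disease (-0.21 ± 0.04), Gnas, the stimulatory G protein (-0.12 ± 0.02, with 9 trained mice below all untrained mice), Nop56, of ribosomal RNA processing (-0.18 ± 0.03), the noncoding Snhg8 (-0.30 ± 0.06) and Rabep1, of endosome fusion (-0.21 ± 0.04). Larger falls were those of Gtf3c4, of RNA polymerase III transcription (-0.60 ± 0.12), Clip1, a microtubule plus-end protein (-0.58 ± 0.14), Ranbp2, of the nuclear pore (-0.54 ± 0.13), and Zscan26 (-0.70 ± 0.16). Zfp871 fell by 0.26 ± 0.04 log2 units, with -0.16 ± 0.06 in wild-type and -0.36 ± 0.06 in transgenic mice, and was among the 12 of 439 called genes whose genotypes differed at an unadjusted p under 0.05. None of those 12 passed after adjustment over all probe sets.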

How the data were processed

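The authors deposited 1 table of linear probe set intensities for the 20 arrays, already scaled; the scaling method is not given in the sources used here. Its 22690 probe sets hold values from 0 to 19078, with 1745 empty cells and 59 zeros. After 64 control probe sets were left out, 20380 had 1 gene symbol in the platform annotation, 691 several and 1555 none; no gene is named from the last 2 kinds. From the deposited intensities, log2(intensity + 66.72) was computed here, the constant being the 20th percentile of the table. The 13575 probe sets with a mean above 7.592 log2 (intensity 126.2, the 40th percentile) were tested, and an empty cell was left out of that probe set's fit (906 tested probe sets had one). limma 3.58.1 in R 4.3.3 fitted training with genotype as a block (lmFit, eBayes with a variance trend), two-sided, with Benjamini-Hochberg adjustment over all tested probe sets and calls at an adjusted p under 0.05. Effects within a genotype and their difference came from a fit of 4 group means. The precision is limited by the number of arrays. The fit was tested on simulated data.

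Groups were taken from titles and source names. Genes were named by rule: the 10 higher and 10 lower called genes with the smallest p; the 10 of each with the largest difference among those called in all 20 fits with 1 array left out and at an unadjusted p under 0.05 in each genotype; up to 3 higher and 3 lower called members per pathway list; up to 5 genes per direction with the widest gap between separated groups; and a list of usual muscle, clock and stress genes, of which Mstn and Trim63 were not on the array under 1 symbol. Other members and markers named were chosen after their values were seen. The members and the 41 pathway and 12 marker lists were chosen with earlier results of these data known. The lists were described by counts and medians and not tested. Alternatives changed the scaling, the constant, the filter, the block, the variance model, the probe sets and the arrays used.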

Additional observations from a re-analysis of the deposited data

Results flagged for a closer look

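Of 70 groups of 10 mice examined, 9 held a mouse farther from the others than Dixon's critical value, a rate that chance alone gives in about 1 of 20 groups. TGUT-145 was the far mouse 4 times among untrained mice, with Cdkn1a at 654.6 (the nearest other mouse at 1962), Pdk4 at 3494 (nearest 7176), Col3a1 at 1143 (nearest 629.4) and Gas6 at 802.8 (nearest 633.5). In each of these genes its value lay toward the trained mice. TGT-133 was far below the other trained mice in Ndufb10, at 2538 (nearest 3039), and in Vegfb, at 1006 (nearest 1205), in both toward the untrained mice. TGUT-146 had the lowest Ckmt2 of the untrained mice, at 4538 (nearest 5884). In trained mice wtt-137 had the highest Col3a1, at 1937 (nearest 1083), and the most empty cells, 822 (nearest 386).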

How the results depend on the processing

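All 109 called genes that the selection rule names kept their direction under every alternative run, where still tested. Part of the rule favours genes with small p or with calls in all fits with 1 mouse left out. The counts below therefore do not stand for all called genes. The number still called was 108 under quantile normalization, 91 with arrays centred on their medians, 89 with no filter, 99 of 99 with the filter at the 60th percentile, 105 with 4 group means, 93 with no genotype block, 65 of 69 without probe sets of several transcripts, 82 without the 2 arrays with the most empty cells, and 77 to 109 with 1 mouse left out. The other settings kept all 109.

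The 686 calls (343 higher, 343 lower) became 1585 with array weights (703 higher, 882 lower), 355 without probe sets of several transcripts (178 higher, 177 lower; fewer were tested) and 457 without the 2 arrays with the most empty cells (150 lower). The lower calls were 202 with no genotype block and 207 with 1 probe set per gene. With 1 mouse left out, the calls ran from 331 to 1134, the higher ones from 188 to 559 and the lower ones from 1.04% to 4.96% of the 13575 tested probe sets. The 42 calls in transgenic mice became 148 under quantile normalization, 11 with centred arrays, 69 with an added constant of 1, 6 with no filter, 99 with the filter at the 60th percentile, 65 with no variance trend, 67 with robust variance, 746 with array weights, 2 without probe sets of several transcripts, 24 with 1 probe set per gene and 125 without the 2 arrays with the most empty cells; they ran from 2 to 764 with 1 mouse left out. The 0 calls in wild-type mice became 77 with array weights and ran from 0 to 4 with 1 mouse left out. The difference between genotypes gave 0 calls under each of these settings. Beyond the settings that test fewer probe sets or mice, the cause of these moves was not tested.

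Values near 0 changed sign without a call. Myh7 was -0.000628 log2 with centred arrays, -0.0018 with the table's median as constant and -0.0194 with array weights, and ran from -0.16 to 0.15 with 1 mouse left out. H2-K1 was -0.11 without the 2 arrays with the most empty cells and ran from -0.0366 to 0.10. No paired analysis was possible because no mouse number is shared between groups. Array signal limits what can be said of the probe sets below the filter, which were not tested.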
